A study of Mus musculus with 11 samples.

Results

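Described here are 7 genes of the cytosolic and membrane-associated machinery of innate sensing, *Myd88*, *Ly96*, *Tollip*, *Nod1*, *Nod2*, *Nlrp3* and *Ripk2*. They were taken by their symbols from the 248 genes of the NanoString mouse Inflammation panel, and all 7 were measured. Corneas (labelled as epithelia) came from female C57BL/6 mice kept for 5 days under desiccating stress, a dry eye model that combines a low-humidity draft with scopolamine in the drinking water to stop tear secretion. During this time the mice received eye drops 2 times a day with vehicle (3 samples), 10 μM pan, an agonist of all Trk receptors (4 samples), or 10 μM C1, a partial agonist of TrkC (4 samples). Non-stressed corneas were not analysed here, so every group shares the desiccation, and the values do not show what stress itself did to these genes. One age label reads 3 months for all 11 samples. A second one differs from it: all 4 C1 samples and pan replicate 4 carry 22 to 24 months there, and the other pan samples and the vehicle group carry 2 to 3 months. The study's methods describe young mice only, so which label holds is not known here. Whether a sample held the corneas of 1 mouse or of several is not given for this assay.

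Toll-like receptors sense microbial products and molecules from damaged cells at the cell surface and in endosomes. LY96, better known as MD-2, is the co-receptor that lets TLR4 bind lipopolysaccharide, MYD88 is the adaptor that most Toll-like receptors and the interleukin 1 receptor family recruit, and TOLLIP is an adaptor that dampens this signal. NOD1 and NOD2 sense fragments of bacterial cell wall in the cytosol and pass the signal to the kinase RIPK2, which leads to NFkB. NLRP3 builds the inflammasome that matures interleukin 1 beta and interleukin 18. The corneal epithelium and the macrophages and dendritic cells of the cornea can both use these pathways.

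The panel counts 1 probe per gene, and each value is a probe count divided by the authors by a housekeeping factor of the sample, here called a normalized count. Total probe counts over the 248 genes were 91955 to 133098 in vehicle, 64156 to 646446 in pan and 165828 to 525997 in C1 samples. A probe's count depends on how well it binds, so the level of one gene was not set against that of another. The keratins 3, 5, 12 and 14, *Pax6* and *Cdh1*, which would mark corneal epithelium, and 3 keratocyte markers are not on the panel, so the label of the tissue could not be checked with them. Of 9 myeloid marker genes, all were on the panel, and their summed normalized count was 238 to 375 in vehicle, 178 to 238 in pan and 276 to 391 in C1 corneas. Among them *Trem2* had at most 2 probe counts in any vehicle sample. In whole-tissue RNA, fewer cells of a type and less RNA per cell cannot be told apart.

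When pan was compared with vehicle, 0 of the 7 genes passed an adjusted p of 0.05 in limma, where 5 of the 248 genes of the panel (2.02%) passed. At an unadjusted p of 0.05 the count was again 0 of 7, against 12.5% of the panel. With C1 the count was 0 of 7 and 0 of 248 genes (0%) passed. At an unadjusted p of 0.05 it was 0 of 7, against 10.5% of the panel. Neither treatment separated the samples of any of the 7 genes completely from vehicle, whereas 2.42% of the panel lay wholly above vehicle and 8.47% wholly below it with pan, and 6.05% and 4.03% with C1. The 7 genes split into 5 with 281 or more normalized counts in every sample and small differences, and 2, *Nod2* and *Nlrp3*, that had at most 10 probe counts in any vehicle sample.

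**Figure D1:**
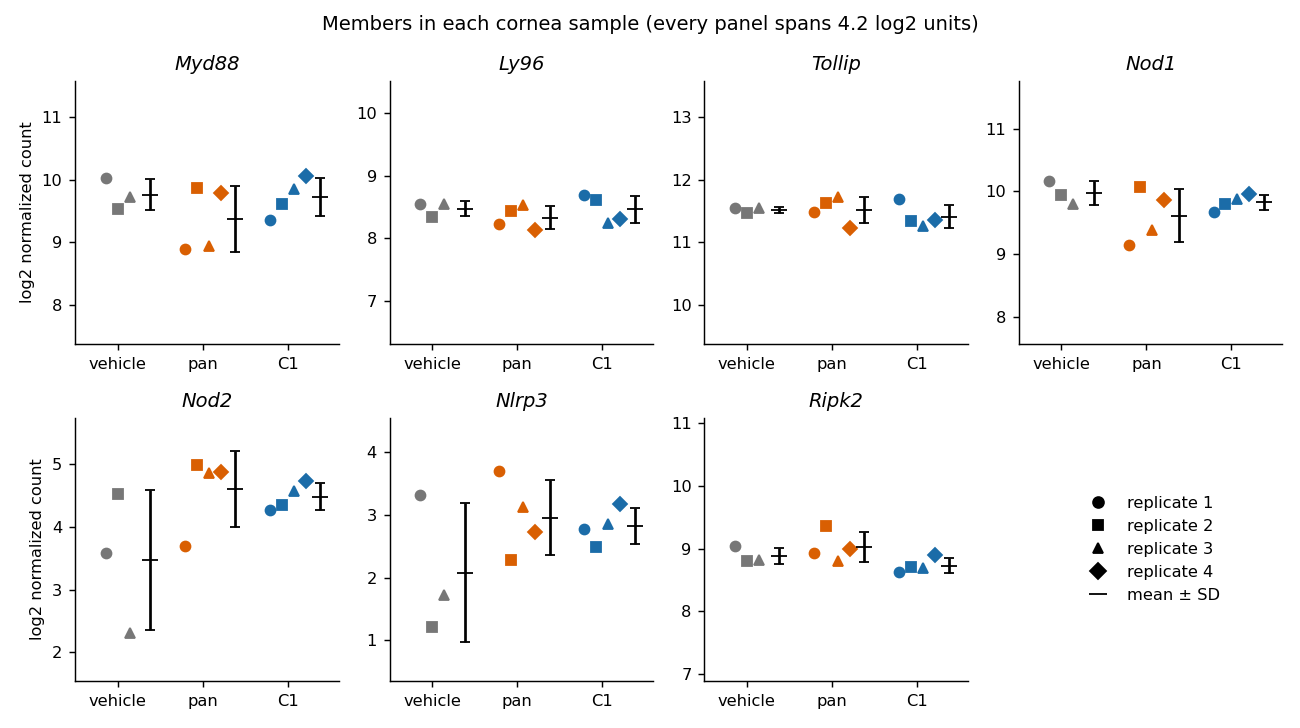
Each point is the log2 normalized count of 1 cornea sample, with a panel for each gene, the groups on the x axis, the replicate given by the symbol and the mean ± SD beside the points. *Myd88* and *Nod1* had 2 low pan samples (replicates 1 and 3), *Tollip*, *Ly96* and *Ripk2* lay close together in all groups, and *Nod2* and *Nlrp3* were widely scattered in vehicle.

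*Myd88* (gene ID 17874) had 1041, 740 and 844 normalized counts in vehicle replicates 1 to 3. In pan replicates 1 to 4 it had 474, 937, 493 and 877. In C1 replicates 1 to 4 it had 656, 783, 918 and 1064. Pan replicates 1 and 3 were thus lower than any vehicle sample, while pan replicates 2 and 4 lay within the vehicle range, and the C1 samples surrounded it. The mean of the vehicle samples was 875 ± 153 (SD, n = 3), that of the pan samples 695 ± 246 (SD, n = 4) and that of the C1 samples 856 ± 176 (SD, n = 4). The log2 fold change was -0.39 with pan (95% confidence interval -1.14 to 0.37, adjusted p = 0.640 from limma) and -0.04 with C1 (-0.54 to 0.46, adjusted p = 0.939). On the log2 scale the SD was 0.25 in vehicle, 0.53 in pan and 0.30 in C1 samples. Over the 131 panel genes averaging a log2 value of 5 or more, the median SD was 0.14, 0.34 and 0.19 in this order. The wider spread of the pan samples was thus not particular to *Myd88*. The difference of the pan mean exceeded the vehicle SD of *Myd88* but not the SD of its pan samples.

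*Nod1* (gene ID 107607), the receptor for cell wall fragments found mainly in Gram-negative bacteria, followed the same pattern. Its vehicle samples had 1153, 987 and 890 normalized counts, and the pan samples had 568, 1071, 667 and 930. The C1 samples had 819, 888, 938 and 998, a narrow range that overlapped the lower part of the vehicle values. As for *Myd88*, pan replicates 1 and 3 were below all vehicle samples. Against vehicle, the log2 fold change was -0.36 with pan (95% confidence interval -1.02 to 0.30, adjusted p = 0.605 from limma). With C1 it was -0.15 (-0.49 to 0.20, adjusted p = 0.787), an interval from 0.712 to 1.15 times the vehicle level. A two-sided exact permutation test of the means gave p = 0.257 for *Nod1* and p = 0.343 for *Myd88* with pan. Of the 35 ways to divide 7 samples into groups of 3 and 4, the most extreme gives 0.0286, the smallest p this test allows.

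The likeness of these genes was measured as the root mean square difference of their log2 values over the 11 samples, each gene centred on its own mean. Between *Myd88* and *Nod1* it was 0.16, where *Myd88* itself varied by 0.38 and the median difference of *Myd88* from the 130 other genes whose log2 values averaged 5 or more was 0.40. The genes most like *Myd88* were *Keap1* (0.11), which encodes the inhibitor of NRF2, and *Gnas* (0.13), the alpha subunit of the stimulatory G protein. Those most like *Nod1* were *Rhoa* (0.080), a small GTPase of the actin cytoskeleton, and *Hspb1* (0.087), a small heat shock protein. All of them were measured in the same lanes and share the housekeeping factor.

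The low pan values of both genes were in the samples with the smallest total counts. Pan replicates 1 and 3 had totals of 64156 and 81855, against 101351 and 646446 in pan replicates 2 and 4. The medians of the 131 genes averaging a log2 value of 5 or more also differed between samples. In pan replicates 1 to 4 they stood -0.302, 0.226, -0.132 and -0.068 from the mean of all sample medians. Pan replicate 4, with the largest total, nevertheless had less of both genes than pan replicate 2. In the C1 group the order of the *Myd88* and of the *Nod1* values was that of the totals, from 165828 in replicate 1 to 525997 in replicate 4. In the vehicle group it was not, since *Nod1* was lowest in replicate 3, which had the largest total of that group. Each of these values still rested on at least 146 probe counts. When the 3 groups were fitted jointly and the log2 total entered as a covariate, the log2 fold change of *Myd88* was -0.46 with pan and -0.44 with C1, and that of *Nod1* was -0.40 and -0.37. With the second age label as a covariate the 4 values were -0.52, -0.58, -0.44 and -0.47. Pan is the only group that holds both age labels, so this covariate sets pan replicate 4 apart. The pan values are therefore those obtained without this sample, and the C1 values rest on it alone. None of these values passed an adjusted p of 0.05. Between C1 and vehicle the agonist and the second age label cannot be told apart.

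**Figure D2:**
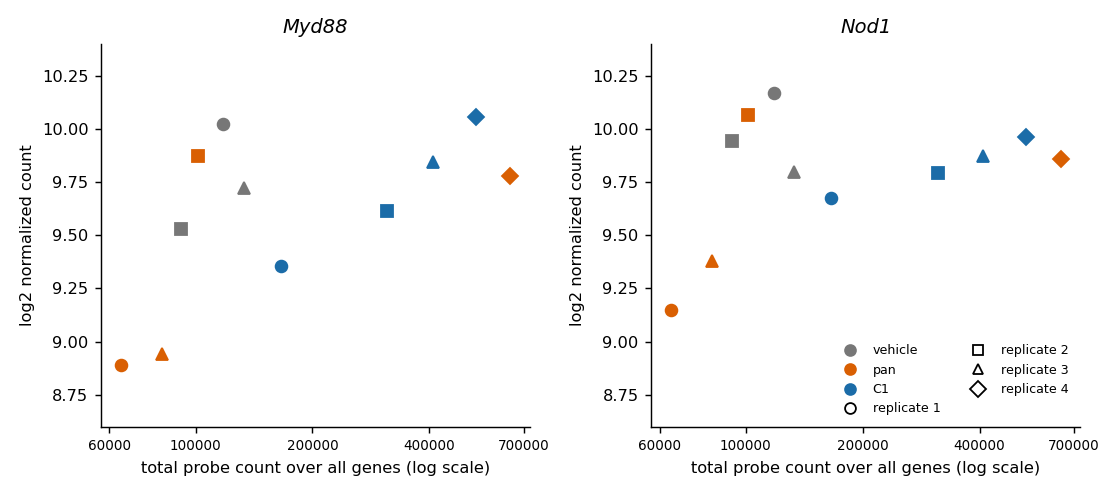
The log2 normalized count of *Myd88* (left) and *Nod1* (right) is plotted against the total probe count of each sample on a log axis, with colours for the groups and symbols for the replicates. The 2 pan samples with totals of 64156 and 81855 hold the lowest values of both genes, and in C1 the values are ordered as the totals.

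The RefSeq table of promoters (mouse build GRCm38.p6) holds 5 of the 7 genes. Shown are the 250 bases before the start of *Myd88*, which varied most over the 11 samples among the 5 well-counted genes, and of *Tollip*, which varied least. Capitals mark letters that match 1 of 2 motifs searched on both strands, GAAA and GAAA with 2 free bases between them, the core of the element bound by interferon regulatory factors, and GGG and CC with 5 free bases between them, a loose form of the NFkB site. A match to either could overlap the other.

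Myd88, chr9:119340019-119340268, minus strand: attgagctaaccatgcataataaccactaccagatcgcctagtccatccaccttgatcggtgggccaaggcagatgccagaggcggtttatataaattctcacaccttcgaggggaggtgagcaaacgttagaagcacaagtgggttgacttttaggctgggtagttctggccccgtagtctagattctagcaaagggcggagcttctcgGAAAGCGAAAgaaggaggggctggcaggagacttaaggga

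Tollip, chr7:141902462-141902711, minus strand: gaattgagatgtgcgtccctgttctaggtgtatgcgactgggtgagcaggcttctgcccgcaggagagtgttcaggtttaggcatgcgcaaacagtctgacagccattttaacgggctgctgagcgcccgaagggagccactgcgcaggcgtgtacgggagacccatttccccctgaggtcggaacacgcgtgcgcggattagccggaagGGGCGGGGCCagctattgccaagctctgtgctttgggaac

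*Myd88* held 1 match to the first motif, which begins 40 bases before the start and which 2.98% of the 32851 promoter entries hold, and no match to the second. *Tollip* held 1 match to the second motif, also 40 bases before the start, which 45.8% of the entries hold. These letters include GGGCGG, the box bound by Sp1. A match of letters is no evidence that a factor binds there.

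*Tollip* (gene ID 54473) was the steadiest of the 7 genes over all 11 samples. Within the pan group *Ly96* varied less, and within the C1 group *Nod1* and *Ripk2* did. It had 2981, 2826 and 3000 normalized counts with vehicle. The pan samples had 2876, 3153, 3367 and 2405, and the C1 samples 3293, 2597, 2453 and 2609. Both treated groups reached above and below the vehicle values, although 3 of 4 C1 samples were below the lowest of them. The log2 fold change was -0.003 with pan (95% confidence interval -0.50 to 0.49, adjusted p = 0.992 from limma) and -0.11 with C1 (-0.45 to 0.23, adjusted p = 0.810). Its direction changed between settings in both comparisons, for example to 0.09 with pan and 0.27 with C1 when the second age label was a covariate.

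*Ly96* (gene ID 17087) had 372, 323 and 373 normalized counts with vehicle, 299, 347, 371 and 281 with pan, and 413, 391, 304 and 318 with C1. With pan, 2 of 4 samples lay below the vehicle range and none lay above it. With C1, 2 samples were above this range and 2 below it. The log2 fold change was -0.14 with pan (95% confidence interval -0.64 to 0.36, adjusted p = 0.845 from limma) and -0.01 with C1 (-0.39 to 0.37, adjusted p = 0.978). The C1 interval spans 0.763 to 1.29 times the vehicle level, and the sign of this small difference changed with the second age label as a covariate (0.26). *Tlr4*, the receptor that LY96 serves, had log2 fold changes of -0.38 with pan (standard error 0.27) and 0.04 with C1 (standard error 0.13), and did not pass the test in either comparison (adjusted p = 0.583 and 0.913 from limma). *Ly96* was most like *Stat3* (root mean square difference 0.095) and *Gnaq* (0.11), and *Tollip* was most like *Hmgb1* and *Birc2* (both 0.077).

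*Ripk2* (gene ID 192656), the kinase below NOD1 and NOD2, had 527, 447 and 452 normalized counts with vehicle. It had 490, 656, 449 and 512 with pan and 395, 419, 414 and 478 with C1. The highest value belonged to pan replicate 2, and 3 of 4 C1 samples were below all vehicle samples. Against vehicle the log2 fold change was 0.14 with pan (95% confidence interval -0.38 to 0.66, adjusted p = 0.860 from limma) and -0.16 with C1 (-0.47 to 0.16, adjusted p = 0.755). The exact permutation test gave p = 0.514 with pan and p = 0.143 with C1. *Ripk2* was most like *Relb* (root mean square difference 0.11), an NFkB subunit, and *Tradd* (0.14), an adaptor of the TNF receptor. The kinase TAK1 (*Map3k7*) and the ubiquitin ligase cIAP1 (*Birc2*), which act together with RIPK2, had log2 fold changes of 0.205 and 0.04 with pan and of 0.08 and -0.11 with C1. The largest of these 4 values was smaller than its standard error (0.24), and adjusted p-values from limma were 0.778 and 0.942 with pan and 0.889 and 0.787 with C1.

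*Nod2* (gene ID 257632), which senses muramyl dipeptide, had the largest differences of the 7 genes but few counts. It had 12.01, 23.1 and 4.93 normalized counts with vehicle, which are 6, 10 and 3 probe counts. The pan samples had 13.0, 31.7, 29.0 and 29.3 (4, 13, 10 and 93 probe counts), and the C1 samples had 19.3, 20.3, 23.7 and 26.8 (14, 29, 46 and 62 probe counts). Vehicle replicate 2 lay above 2 of the C1 samples and 1 pan sample, so the groups overlapped. Vehicle samples averaged 13.3 ± 9.13 (SD, n = 3), pan samples 25.7 ± 8.59 (SD, n = 4) and C1 samples 22.5 ± 3.42 (SD, n = 4). The log2 fold change was 1.13 with pan (95% confidence interval -0.14 to 2.40, adjusted p = 0.460 from limma) and 1.01 with C1 (-0.14 to 2.16, adjusted p = 0.452). The exact permutation test gave p = 0.143 and p = 0.0857. Both comparisons use the same 3 vehicle samples. Without vehicle replicate 3 the log2 fold changes were 0.55 and 0.42, and without vehicle replicate 2 they were 1.66 and 1.54. These last values had unadjusted p-values of 0.0132 and 0.006 in limma (adjusted p = 0.287 and 0.334). With the mean of the 62 lowest genes of the panel subtracted in each sample they were 2.19 and 1.93, and with a pseudocount of 20 they were 0.47 and 0.38. The smallest adjusted p of *Nod2* in limma over all alternatives was 0.231 for pan (largest 0.826) and 0.334 for C1 (largest 0.850). The 95% exact Poisson interval of vehicle replicate 3 reached from 1.02 to 14.4 normalized counts and that of vehicle replicate 2 from 11.1 to 42.4, whereas the interval of pan replicate 4 was 23.6 to 35.9. Such intervals cover counting error only and take the recovered probe counts as raw counts. The difference of *Nod2* from vehicle thus did not pass the adjusted threshold, and its size depended on the vehicle samples and the setting.

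*Nlrp3* (gene ID 216799) was among the 62 genes with the lowest values of the panel. Vehicle samples had 10.0, 2.30 and 3.29 normalized counts, from 5, 1 and 2 probe counts. The pan samples had 13.0, 4.88, 8.69 and 6.61, from 4, 2, 3 and 21 probe counts, and the C1 samples had 6.88, 5.61, 7.22 and 9.07, from 5, 8, 14 and 21 probe counts. Vehicle replicate 1 was higher than 3 of 4 pan samples and all C1 samples. In 2 of 3 vehicle and 2 of 4 pan samples *Nlrp3* had no more than 3 probe counts, which a true count of 0 cannot be told from. No gene is stored with a count of 0 in any sample, and vehicle replicate 2 held *Nlrp3* at 1. The log2 fold change was 0.88 with pan (95% confidence interval -0.38 to 2.13, adjusted p = 0.550 from limma) and 0.74 with C1 (-0.42 to 1.90, adjusted p = 0.623). The latter changed to -0.47 when the mean of these 62 genes was subtracted in each sample, and with the pseudocount the values were 0.17 and 0.12. Without vehicle replicate 2 the log2 fold changes were 0.44 with pan and 0.31 with C1, and without vehicle replicate 1 they were 1.50 and 1.36. The latter had unadjusted p-values of 0.00972 and 0.00175 in limma (adjusted p = 0.141 and 0.0827). *Nod2* was above the mean of the 62 lowest genes in 2 of 3 vehicle samples and in all 4 samples of each treatment, and *Nlrp3* in 1 of 3 vehicle, 3 of 4 pan and 1 of 4 C1 samples.

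**Figure D3:**
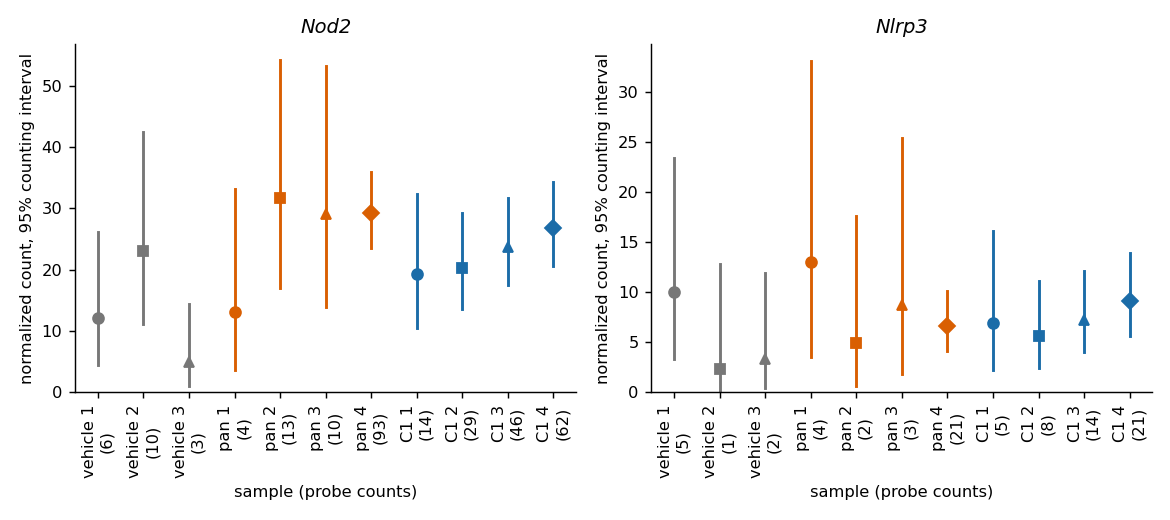
The normalized count of *Nod2* (left) and *Nlrp3* (right) is shown for each sample with its 95% exact Poisson interval (lines), and the probe counts stand in parentheses under the sample. The *Nod2* interval of vehicle replicate 3 (1.02 to 14.4) overlaps those of 4 of 8 treated samples, and the interval of vehicle replicate 2 (11.1 to 42.4) overlaps all of them.

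The search for like genes covered only the 131 genes averaging a log2 value of 5 or more. Among them no close pattern was found for *Nod2* and *Nlrp3*. Both genes average less than this, so genes at their own level were not compared and a close pattern there was not tested. *Nod2* was most like *Alox15* (root mean square difference 0.64) and *Creb1* (0.65), against its own spread of 0.76, and *Nlrp3* was most like *Jun* (0.51) and *Il1a* (0.53), against 0.69. Of the substrates of the NLRP3 inflammasome, *Il18* averaged 3282 ± 188 normalized counts in vehicle (SD, n = 3), 3248 ± 373 in pan (SD, n = 4) and 3458 ± 315 in C1 samples (SD, n = 4), with log2 fold changes of -0.02 and 0.07. *Il1b* averaged 16.4 ± 1.85 (SD, n = 3), 13.1 ± 7.84 (SD, n = 4) and 17.8 ± 6.14 (SD, n = 4) in the same order, with log2 fold changes of -0.65 (standard error 0.63) and 0.06 (standard error 0.28). Pan replicate 3 held *Il1b* at 1 probe count (log2 value 1.535), while the other pan samples had log2 values of 3.70 to 4.46. Neither gene passed an adjusted p of 0.05 in limma.

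The 2 agonists were also compared with each other, at the same dose of 10 μM and after the same 5 days, as 1 pair of compounds. Again 0 of the 7 genes passed an adjusted p of 0.05, against 1 of 248 genes (0.403%). In 0 of 7 were all C1 samples above or below all pan samples, against 7.66% and 0.403% of the panel, and 0 of 7 had an unadjusted p under 0.05, against 15.3% of the panel. *Ripk2* came nearest, with a log2 fold change of -0.29 between C1 and pan (95% confidence interval -0.72 to 0.13, adjusted p = 0.474 from limma). Of the C1 samples, 3 of 4 were lower than every pan sample (p = 0.0571 in the two-sided exact permutation test, whose smallest p for 4 and 4 samples is 0.0286). Among the samples labelled 22 to 24 months, 4 C1 samples and pan replicate 4, the difference of *Ripk2* was -0.27. *Myd88* differed by 0.35 (-0.32 to 1.01) and *Nod1* by 0.21 (-0.33 to 0.75), and within the 22 to 24 months label, where pan is 1 sample, by -0.06 and -0.03. For *Ly96* the difference was 0.13 (-0.31 to 0.57) and for *Tollip* -0.11 (-0.54 to 0.33). Their signs changed to -0.01 with median centring for *Ly96* and to 0.18 within the 22 to 24 months label for *Tollip*. For *Nod2* and *Nlrp3* the difference was -0.12 (-0.82 to 0.57) and -0.13 (-0.84 to 0.58), the widest intervals between the agonists. The sign of *Nod2* changed to 0.01 without pan replicate 2, and that of *Nlrp3* to 0.12 without pan replicate 1. The lowest value of *Nlrp3* over all alternatives was -1.09. A value that misses the threshold does not show that the agonists act alike on these genes.

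**Figure D4:**
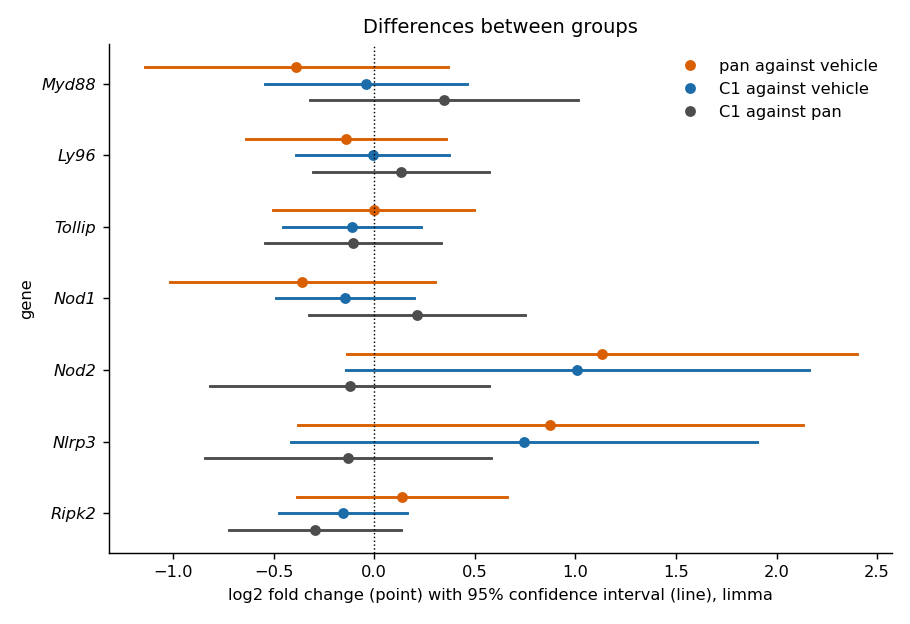
Points are log2 fold changes from limma and lines their 95% confidence intervals for the 7 genes in the 3 comparisons. All 21 intervals include 0, and those of *Nod2* and *Nlrp3* against vehicle are the widest.

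Around the 7 genes, 40 further genes of the pathway were examined, 12 receptors, 14 signalling genes and 14 inflammasome substrates and target genes. The list was chosen with earlier results of these data known, so its counts are a description and no test of the pathway. The median log2 fold change of the 40 genes with pan was 0.005, beside -0.20 for all 248 genes and -0.003 for the 7 genes. With pan, 2 of the 40 were higher at an adjusted p of 0.05 in limma and 0 lower, against 0.806% and 1.21% of the panel. The 0.806% of the panel are these same 2 genes. Both are genes that NFkB induces, *Tnfaip3*, which encodes the deubiquitinase A20, an inhibitor that also acts on RIPK2 (log2 fold change 1.86, standard error 0.25, adjusted p = 0.00846), and the chemokine *Cxcl1* (1.86, standard error 0.29, adjusted p = 0.0181). The count depended on single samples and was 0 without vehicle replicate 2 or vehicle replicate 3, 1 without pan replicate 1, 2 or 4, and 3 without vehicle replicate 1. Of the 12 receptors none passed, and *Tlr7*, an endosomal receptor for single-stranded RNA, had the smallest p. It had 32.5 ± 18.1 normalized counts (SD, n = 3) with vehicle and 5.65 ± 3.07 (SD, n = 4) with pan (log2 fold change -2.48, adjusted p = 0.0912 from limma), but 3 of 4 pan samples had no more than 3 probe counts, so the size of this difference rests on the lowest stored counts. *Tlr2* had a log2 fold change of -0.43 (standard error 0.34). An unadjusted p under 0.05 was found for 7 of the 40 genes (17.5%), against 12.5% of the panel. Besides *Tnfaip3*, *Cxcl1* and *Tlr7* these were *Il1a* (1.26) and *Cxcl2* (1.61), with higher values, and *Ccl5* (-1.20) and *Nos2* (-0.87), with lower values.

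With C1, 0 of the 40 pathway genes passed an adjusted p of 0.05 in limma, and 5 had an unadjusted p under 0.05 (12.5%, against 10.5% of the panel). These were *Tlr3* (log2 fold change 0.97), *Tlr5* (0.41) and *Il1a* (0.57) with higher values, and *Tlr7* (-1.60) and *Ccl5* (-1.12) with lower ones. The median was 0.07, beside -0.02 for all genes and -0.04 for the 7 genes. For *Tnfaip3* the value was 0.86 ± 0.39 (standard error) and for *Tlr2* 0.35 ± 0.17, both with an adjusted p of 0.452 from limma. Between C1 and pan, 0 of 40 passed in limma, and 4 had an unadjusted p under 0.05 (10%, against 15.3% of the panel). These were *Tlr2* (0.79) and *Ptgs2* (1.08) higher and *Tnfaip3* (-1.002) and *Cxcl2* (-1.05) lower with C1. *Ptgs2* had no more than 3 probe counts in 3 of 4 pan samples, so the size of its difference rests on the lowest stored counts.

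Of the 9 myeloid marker genes, 8 had negative log2 fold changes with pan and 7 had positive ones with C1, with medians of -0.49 and 0.27, beside -0.20 and -0.02 for all genes, and 0 of 9 passed an adjusted p of 0.05 in either comparison. *C3ar1* alone had an unadjusted p under 0.05 in both (11.1% of the 9, against 12.5% and 10.5% of the panel), with log2 fold changes of -1.18 and -0.95. Between C1 and pan the median of the 9 genes was 0.66, beside 0.23 for all genes, and all 9 values were positive. *C1qa* (0.77), *C1qb* (0.96) and *Mrc1* (0.86) had an unadjusted p under 0.05 (33.3% of the 9, against 15.3% of the panel), with adjusted p-values of 0.256, 0.256 and 0.272 from limma. In the pan group, where *Myd88* and *Nod1* had their low samples, the myeloid sum was 217 and 232 in replicates 1 and 3 and 178 and 238 in replicates 2 and 4. The part of myeloid cells in these values was not tested. Of the T cell markers, 5 of 5 were on the panel with sums of 44.4 to 53.0 in vehicle, 22.7 to 31.7 in pan and 26.1 to 52.3 in C1 samples. With pan, 3 of the 5 (60%, against 12.5% of the panel) had an unadjusted p under 0.05, in both directions. *Ifng* was lower (log2 fold change -2.40, adjusted p = 0.00246 from limma), *Cd4* had -1.68 (adjusted p = 0.0912) and *Cd40lg* 1.14 (adjusted p = 0.239). *Ifng* and *Cd4* were at 1 probe count in 3 of 4 pan samples each, and *Cd40lg* had no more than 3 counts in all vehicle samples, so the sizes of these values rest on the lowest stored counts. With C1, *Ifng* had -1.54 and *Cd40lg* 0.93, and between C1 and pan *Cd4* had 1.44, *Fasl* 1.14 and *Ifng* 0.87, none with an adjusted p under 0.05 in limma. These had an unadjusted p under 0.05, 40% and 60% of the 5 markers, against 10.5% and 15.3% of the panel. Between C1 and pan the other 2 markers were negative, *Cd40lg* with -0.21 and *Il17a* with -0.01. *H2-Eb1* and *Cd40* summed to 152 to 184 in vehicle, 90.3 to 177 in pan and 150 to 248 in C1 samples. *H2-Eb1* had an unadjusted p under 0.05 between C1 and pan (log2 fold change 0.795, adjusted p = 0.277 from limma). *Flt1*, listed as a marker of endothelium, had 10.0 to 25.4, 9.74 to 39.6 and 17.0 to 35.8 normalized counts in vehicle, pan and C1 samples. Whether these counts came from endothelial cells was not tested.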

How the data were processed

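Corneal RNA was counted on the NanoString nCounter mouse Inflammation panel. The authors divided the counts of each sample by the geometric mean of housekeeping probes (6 genes) in ROSALIND and deposited log2 values in 2 tables, one per agonist, each with the same vehicle values. Samples that failed quality control had been left out by the authors. A version of ROSALIND is not given in the sources used here. The authors' own fold changes and p-values in these tables were not used. In each sample the values were within 0.01 of whole multiples of 1 step, taken as 1 probe count. No gene stood at 0, and 52, 18 and 51 genes stood at 1 in pan replicates 1 to 3. Whether background had been subtracted or low counts set to 1 before deposition was not tested. Of 248 genes 247 were found in RefSeq. The gene IDs of 3 rows (Crp, Elk1 and Nos2) belong to other genes, and these rows were named by their symbols.

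Groups came from the sample titles. The deposited log2 values of all 248 genes entered one limma fit per pair of groups (limma 3.58.1, R 4.3.3, lmFit then eBayes), without covariates or filter, with Benjamini-Hochberg adjustment over the panel. The fit was checked on simulated data. Exact permutation tests, two-sided, enumerated every assignment of the samples to the groups (Python 3.11.15, scipy 1.17.1). P-values measure only the spread between these samples. Likeness was searched only among genes averaging a log2 value of 5 or more. The genes named are the 7 members, the 2 such genes most like each, and some pathway and marker genes. The latter act directly on a member, are inflammasome substrates or have an unadjusted p under 0.05. Further markers, such as *Trem2*, *Cd40*, *Flt1* and *Il17a*, are named only to describe their lists. Members and lists were chosen with earlier results of these data known. Alternatives were a pseudocount of 20, only genes averaging a log2 value of 5 or more, median centring, subtraction of the mean of the 62 lowest genes with a floor of 1, all 3 groups in one fit, covariates, a replicate block, a mean-dependent prior variance, an added log2 fold change of 1.2 and each sample left out. The comparison within the 22 to 24 months label was added after the data were seen.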

Additional observations from a re-analysis of the deposited data

Results flagged for a closer look

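*Nod2* in pan replicate 1 had a log2 value of 3.70, against 4.86 to 4.99 in the other pan samples, which set it apart by Dixon's criterion. It rested on 4 probe counts there, and the total count of this sample was the smallest of all 11. Of the 14 groups of 4 samples tested 1 was set apart, and chance does so in about 1 of 20.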

How the results depend on the processing

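In the 3 comparisons, 0 of the 7 genes passed an adjusted p of 0.05 under any of the alternatives run. Of the 21 log2 fold changes, 10 kept their direction in all of them, and of 344 alternative values 32 had the opposite sign. With pan, *Tollip* became 0.06 with median centring, 0.09 with the replicate block, 0.09 with the second age label and 0.03 with the total count, each as a covariate, and ranged from -0.07 to 0.09 with one sample left out. With C1, *Ly96* became 0.04 with the replicate block, 0.26 with the age label and 0.14 with the total count, *Tollip* 0.27 with the age label and 0.09 with the total count, and *Nlrp3* -0.47 with background subtraction. With one sample left out, *Myd88* ranged from -0.15 to 0.09 and *Ly96* from -0.08 to 0.06. Between C1 and pan, the age label gave -0.06 for *Myd88*, -0.03 for *Nod1*, 0.18 for *Tollip* and 0.10 for *Nlrp3*, and the samples labelled 22 to 24 months gave the same 4 values by construction, since both fits set C1 against pan replicate 4 alone. *Tollip* became 0.06 with the total count and *Ly96* -0.01 with median centring. With one sample left out, *Nod2* ranged from -0.42 to 0.01 and *Nlrp3* from -0.35 to 0.12. Over all alternatives *Nlrp3* ranged from -1.09 to 0.12. The cause was not tested.

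The number of pathway genes with an adjusted p under 0.05 with pan was 1 among genes averaging a log2 value of 5 or more, a filter that leaves no value for *Nod2* and *Nlrp3*, and 0 to 3 with one sample left out. Over the panel the count for pan was 2 with the pseudocount, 1 among genes with a mean of at least 5, 3 with background subtraction, 9 with the age label, 8 with the total count and 1 to 7 with one sample left out. For C1 it was 1 among genes with a mean of at least 5, 1 with background subtraction and 2 with a mean-dependent prior variance. Between C1 and pan it was 0 with median centring, all 3 groups in one fit, the age label, the total count, a mean-dependent prior variance and within the 22 to 24 months label (1 pan sample), and 0 to 1 with one sample left out. The samples share only a replicate number, with correlations of same-numbered deviations of 0.06 to 0.31 for pan and vehicle, -0.05 to 0.04 for C1 and vehicle and -0.05 to 0.57 for C1 and pan over 131 genes, and 3 of 11 samples correlated best with their own number. With the replicate block the counts over the panel were 5, 0 and 1. Depth limits *Nod2* and *Nlrp3* in the vehicle samples, which had at most 10 probe counts of either, and in pan replicates 1 to 3, which had at most 13.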
